A study of Rattus norvegicus with 83 samples.

Results

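The comparison described here set 11 libraries labelled pup day 16 (PD16) with amitrole at 25 mg/kg body weight per day (Ami25) against 10 PD16 libraries whose dams had been given corn oil, the vehicle. The libraries were chosen by the sample names in the deposited count table, and they make up 21 of the 83 libraries of the series. All animals were offspring of Sprague-Dawley (Crl:CD(SD)) dams that were gavaged once a day from gestational day 7, with the expected birth on gestational day 23 counted as pup day 1. The treatment protocol lets dosing run to pup day 22 and the series text to pup day 16. Both groups were of the same strain, and the labels name no transgene or deletion in either. RNA integrity scores were above 6.8 in all samples. PD16 libraries with amitrole at 50 mg/kg per day (Ami50, n = 12) and vehicle libraries labelled gestational day 21 (GD21, n = 6) were used for comparison, and means of 5 genes are also given for PD16 libraries with methimazole, a blocker of the same thyroid enzyme, at 16 mg/kg per day (n = 10). The assay was BRB-seq, a bulk method in which the 3′ ends of polyadenylated RNA are tagged with a barcode per sample and sequenced in a pool. Neither litter nor animal is named in the labels, and the p-values therefore reflect only how much these libraries vary, which may be technical. Dams were dosed, so if a group holds littermates its libraries are not independent and the p-values may be too small.

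Amitrole blocks thyroid peroxidase, the enzyme that couples iodine to thyroglobulin, and it also inactivates catalase, which breaks down hydrogen peroxide in peroxisomes. The adrenal cortex takes up or makes cholesterol, moves it into mitochondria, cleaves its side chain and converts the product to corticosteroids, and the chromaffin cells of the medulla make adrenaline. Red cells made in the yolk sac carry embryonic globins, which adult globins replace as blood formation moves to the fetal liver and then to the bone marrow.

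The libraries carry the tissue label testis, which the transcripts went against. The 16 testis genes examined, among them those of Sertoli, Leydig and germ cells, were all too low to test and summed to 0 to 10.0 counts per 1000000 of the library total (CPM) in Ami25 and 1.47 to 12.2 CPM in vehicle. The 7 genes of the adrenal cortex summed to 11507 to 50727 CPM in Ami25 and 12615 to 19643 CPM in vehicle, and the 6 of the adrenal medulla to 949.7 to 2156 and 695 to 889 CPM. The groups are therefore called by their labels for stage and treatment, and no tissue is assumed from the tissue label. Total counts were 263933 to 826619 per library in Ami25 and 409709 to 1052882 in vehicle, so that 1 count was worth 1.81 and 1.59 CPM at the median totals. Some libraries stood apart. Ami25 library 79 had the lowest total and the lowest cortex sum (11507 CPM), and Ami25 library 33 held liver transcripts (6668 summed CPM of 14 liver genes, against a median of 77.4 in the group). Vehicle libraries 22, 24 and 60 had cholesterol synthesis genes at 1632, 1752 and 1751 summed CPM, where the other 7 vehicle libraries lay at 3876 or more. Only some of the results that rest on these libraries are also given without them.

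The stage label also met values against it. Embryonic globin transcripts made up 11.6% to 19.4% of globin counts in the libraries labelled PD16 vehicle, against 0.0891% to 0.242% in those labelled GD21 vehicle and 0.0995% to 0.325% in PD16 Ami25. An effect of amitrole and a difference in developmental stage between the groups cannot be told apart in what follows, and the directions are between groups as labelled.

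Rises and falls between Ami25 and vehicle were near equal in number. Of 4906 genes tested with edgeR's quasi-likelihood test, 1350 (27.5%) were higher and 1318 (26.9%) lower in Ami25 at a Benjamini-Hochberg adjusted p under 0.05, which is what "called", "rose" and "fell" mean here. The median log2 fold change over all tested genes was 0.01. At 2-fold or more there were 417 rises and 448 falls, and at 4-fold or more 70 rises and 167 falls. The CPM values of the libraries did not overlap between the groups for 673 genes (13.7%), 244 of them higher and 429 lower in Ami25. List counts of rises, falls and values without overlap given below are to be read beside these shares of 27.5%, 26.9% and 13.7%. Library numbers run in 3 series (under 21, 21 to 40, over 40) that hold 4, 4 and 3 Ami25 libraries and 2, 4 and 4 vehicle libraries. Within these series edgeR called 486, 902 and 746 rises and 500, 896 and 863 falls. Counts were also simulated from the means and spread of the vehicle libraries alone, with 50 genes changed by each fold tried. There the same test recovered 62% of genes changed 1.5-fold and 86% of those changed 2-fold, and 6.63% of its calls were false. The spread of Ami25 and the number of genes called in the real data were not simulated, so these rates need not hold there.

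**Figure D1:**
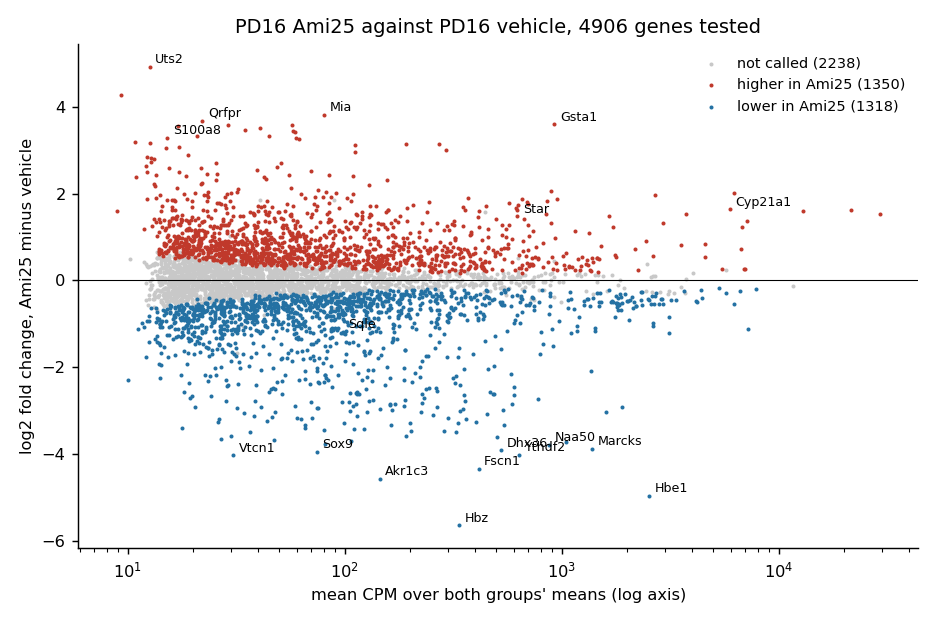
Log2 fold change (Ami25 minus vehicle, vertical axis) against the mean of both groups' mean CPM (horizontal log axis), 1 point per tested gene, with called genes in colour. The 1350 rises and 1318 falls are near equal in number, while the points below -2 outnumber those above 2.

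The 4 largest rises were in Uts2, Mia, Qrfpr and Gsta1. Gsta1, a glutathione transferase of steroid-forming cells, lay between 1133 and 2796 CPM in Ami25 (median 1757) and between 86.2 and 202 CPM in vehicle (median 145). The groups did not overlap, and the fold change was 12.1 (log2 3.59, SE 0.17, adjusted p = 1.29e-25). Uts2, which encodes the peptide urotensin II, had a median of 21.9 CPM in Ami25 (range 0 to 59.4) and of 0 CPM in vehicle (range 0 to 1.93), where it rests on 4 counts over 10 libraries, and rose by 4.92 in log2 (SE 0.66, adjusted p = 6.58e-09). Ami25 library 79 had no Uts2 count and the other 10 lay above every vehicle library. Mia, a small secreted protein first described in melanoma and cartilage, ranged from 72.8 to 277 CPM against 2.44 to 15.4 CPM, a 14.1-fold difference (adjusted p = 7.99e-24). Qrfpr, the receptor of the peptide QRFP, was 12.8-fold higher (40.9 ± 16.7 against 3.21 ± 4.79 CPM, SD, n = 11 and 10). Dpt, the matrix protein dermatopontin, was 12.0-fold higher, and the complement gene C2 12.0-fold. The protease inhibitor gene Pzp (11.7-fold), the pantetheinase gene Vnn3 (11.4-fold), the defensin gene RatNP-3b (11.0-fold) and the lymphoid chemokine gene Ccl21 (10.8-fold) completed the 10. The values did not overlap between the groups for 7 of the 10, the exceptions being Uts2, Pzp and RatNP-3b.

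The largest falls were in the embryonic globins Hbz and Hbe1, followed by Akr1c3 and Fscn1. Hbz, the embryonic alpha-like globin, lay between 2.28 and 21.6 CPM in Ami25 (median 12.6) and between 464 and 967 CPM in vehicle (median 639), with log2 -5.64 as the fold change (SE 0.26, adjusted p = 8.56e-25). Akr1c3, an aldo-keto reductase of steroid metabolism, averaged 10.2 ± 11.2 CPM against 279.6 ± 117 CPM (SD, n = 11 and 10; log2 -4.56). Fscn1, which bundles actin, ranged from 24.4 to 56.8 CPM in Ami25 and from 437 to 1320.1 CPM in vehicle (log2 -4.34, adjusted p = 1.48e-26). Ythdf2, a reader of methylated adenosine in mRNA, ranged from 54.8 to 92.4 CPM against 824 to 1674 CPM (log2 -4.01, SE 0.17, adjusted p = 1.95e-27). No library of the lower group reached the upper group for any of the 10 falls. The others were the immune checkpoint ligand gene Vtcn1 (log2 -4.03), the transcription factor gene Sox9 (-3.94), the helicase gene Dhx36 (-3.91), the membrane-cytoskeleton gene Marcks (-3.88), the acetyltransferase gene Naa50 (-3.78) and Hbe1 (-4.96), described with the globins. Reads of Gsta1, Akr1c3, RatNP-3b and Ccl21 may be shared with near-identical relatives, and how such reads were counted is not given in the sources used here.

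**Figure D2:**
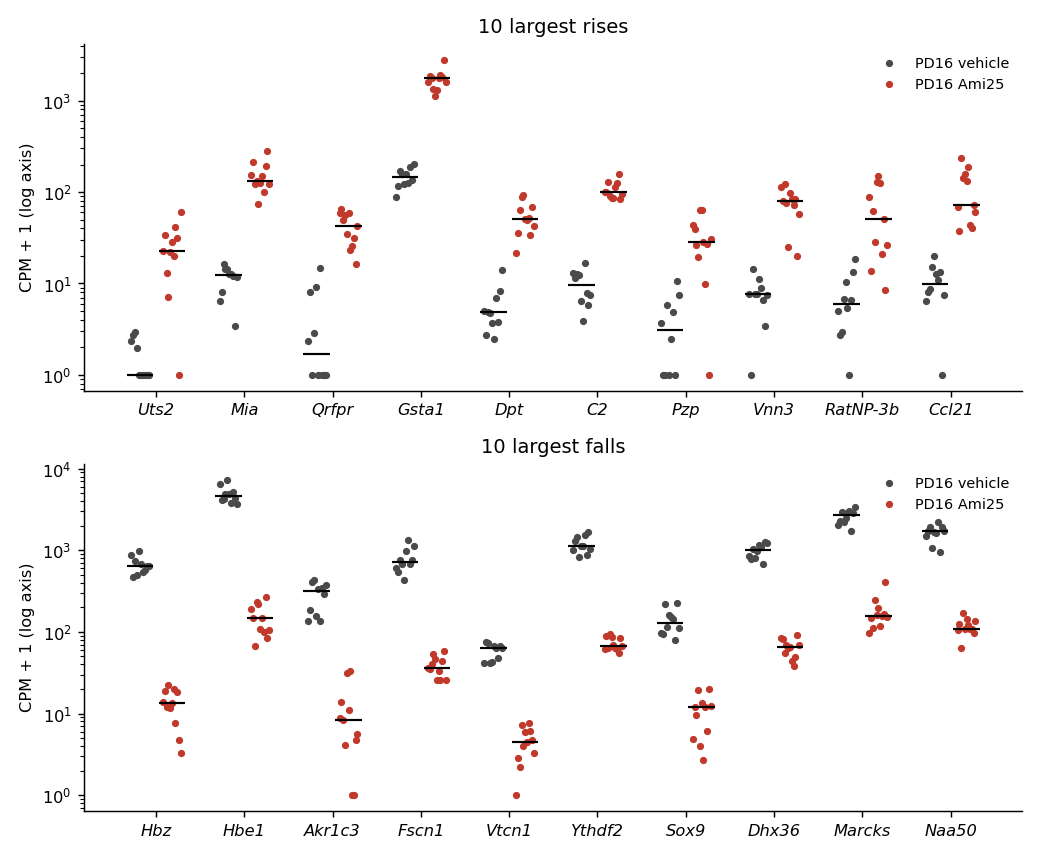
CPM + 1 (log axis) of the 10 largest rises and the 10 largest falls among genes of at least 20 mean CPM in the higher group, 1 point per library and a bar at the group median. The groups are separate for 7 of the 10 rises and all 10 falls, with Ami25 library 79 at 0 CPM for Uts2 and Pzp.

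Genes that bring cholesterol to the start of steroid synthesis rose together. Of the 10 tested members of the list, 7 rose and 1 fell, with a median log2 fold change of 0.87. Cyp11a1, which cleaves the cholesterol side chain, lay between 9317 and 23822 CPM in Ami25 (median 20317) and between 5636 and 8946 CPM in vehicle (median 6029). Those ranges did not overlap, and the fold change was 3.03 (log2 1.60, SE 0.16, adjusted p = 2.33e-13). Star, which carries cholesterol to the inner mitochondrial membrane, ranged from 280.4 to 1298 CPM (median 903) against 225 to 482 CPM (median 370.4). The Star value of Ami25 library 79 lay inside the vehicle range, the other 10 above it, and the log2 fold change was 1.48 (SE 0.18, adjusted p = 8.38e-10). Within the number series over 40 edgeR did not call Star (log2 0.98, adjusted p = 0.0881). The outer membrane protein gene Tspo rose 3.56-fold, the lipoprotein receptor gene Scarb1 2.52-fold and the electron donor gene Fdxr 2.43-fold. The member that fell was Vdac1, the mitochondrial outer membrane channel, at 433 to 566 CPM in Ami25 and 1693 to 2762 CPM in vehicle (log2 -2.08, SE 0.09, adjusted p = 7.11e-30).

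Of 6 tested corticosteroid-forming enzymes 5 rose (median log2 fold change 1.28). Cyp21a1, the steroid 21-hydroxylase, had a median of 10894 CPM in Ami25 (range 1148 to 12587) and of 3088 CPM in vehicle (range 2247 to 3533), a 3.11-fold difference (adjusted p = 5.69e-09). The lowest Ami25 value was again that of library 79, below every vehicle library. Within the 3 number series the Cyp21a1 log2 fold change was 1.96, 1.86 and 0.34 (adjusted p = 0.583 in the last, which holds library 79). The part of library 79 in that last value was not tested. Cyp11b1, the 11-beta-hydroxylase of cortisol and corticosterone synthesis, rose 1.64-fold (adjusted p = 0.0214), but its range of 724 to 13704 CPM enclosed the vehicle range of 3324 to 6654 CPM. In the series over 40 Cyp11b1 stood at a log2 difference of -0.32 (adjusted p = 0.708), and over all series it missed the threshold with no filter (adjusted p = 0.0575), with only the 2 groups fitted (0.0553) and without vehicle libraries 22, 24 and 60 (0.0686). Aldosterone synthase, Cyp11b2, was not called by edgeR (log2 1.58, SE 0.91, adjusted p = 0.14), whereas DESeq2 gave an adjusted p of 0.00185. It stood at 3651 and 2202 CPM in Ami25 libraries 35 and 36 and at 1473 CPM in vehicle library 3, while the other libraries lay between 26.5 and 271 CPM in Ami25 and between 49.4 and 115 CPM in vehicle. Without Ami25 libraries 35 and 36 the log2 difference was -0.37 (edgeR adjusted p = 0.759). Hsd3b1, which makes progesterone from pregnenolone, rose with a log2 fold change of 0.53, the cytochrome b5 gene Cyb5a with 0.98, and H6pd, which supplies NADPH to the steroid reductase of the endoplasmic reticulum, with 1.89. Levels of a cell type's genes in bulk RNA do not separate more cells of that type from more RNA per cell.

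Among genes of cortex identity and signalling, 4 of 6 tested rose. These were the ACTH receptor partner Mrap (log2 0.53), the kinase subunit gene Prkar1a (0.56), the angiotensin receptor gene Agtr1a (0.48) and Nr4a1 (1.00), an early-response nuclear receptor. The Nr4a1 call (adjusted p = 0.0432) was lost in DESeq2 (0.0958), with no filter (0.117), with a mean of at least 10 CPM (0.0555), without the libraries under 10 CPM of Eif2s3y (0.0722) and without vehicle libraries 22, 24 and 60 (log2 0.61, adjusted p = 0.275). Inha, the inhibin alpha subunit, fell from 205 ± 77.9 CPM in vehicle (SD, n = 10) to 84.8 ± 28.0 CPM (SD, n = 11; adjusted p = 2.19e-05). The ACTH receptor gene Mc2r was too low to test, at 18.9 ± 7.76 CPM in Ami25 and 16.1 ± 4.36 CPM in vehicle (SD).

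**Figure D3:**
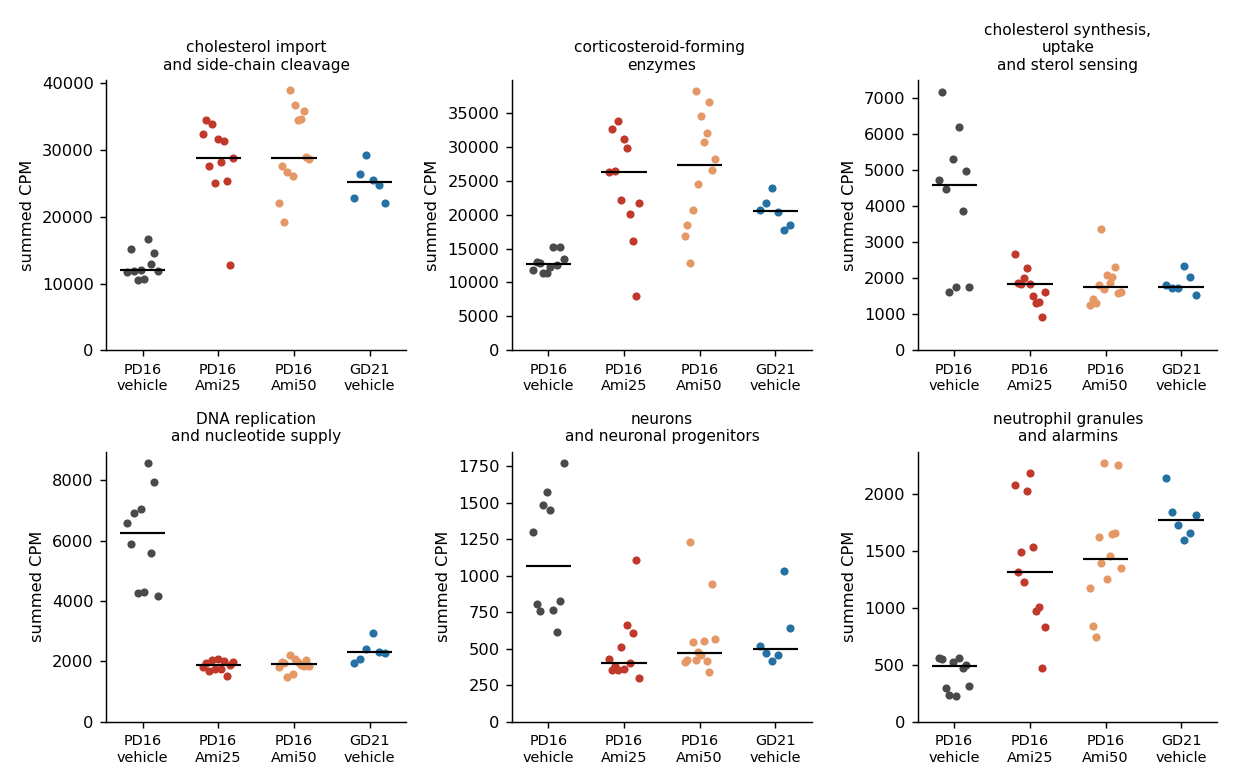
Summed CPM of 6 gene lists, 1 point per library and a bar at the group median, in PD16 vehicle, Ami25 and Ami50 and in GD21 vehicle. DNA replication genes lay between 1502 and 2094 CPM in Ami25, under all vehicle libraries, while 3 vehicle libraries lay in the Ami25 range for cholesterol synthesis.

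Cholesterol synthesis went the other way. Of 22 tested genes of synthesis, uptake and sterol sensing 18 fell and 1 rose (median log2 fold change -1.11). Genes of this pathway are driven by SREBP2, a transcription factor released when sterol is scarce, together with NF-Y, the factor of the CCAAT box. The promoters of 3 members that fell and of Cyp21a1, which rose, are shown to set the letters of a sterol-regulated group beside those of a steroid-forming enzyme. Each is the stretch of 250 bases before the annotated start of transcription, from RefSeq on the GRCr8 build, 5′ to 3′ on the gene's strand, and capitals mark CCAAT (or ATTGG, the same box on the other strand) and, in Cyp21a1, AAGGTCA, the half-site of steroidogenic factor 1.
Hmgcs1, chr2:53382054-53382303, plus strand: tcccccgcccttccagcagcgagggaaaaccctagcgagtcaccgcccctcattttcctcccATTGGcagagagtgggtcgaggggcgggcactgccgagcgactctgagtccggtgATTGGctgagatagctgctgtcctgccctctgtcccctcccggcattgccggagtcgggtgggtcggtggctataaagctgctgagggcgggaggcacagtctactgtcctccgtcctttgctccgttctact
Idi1, chr17:66547525-66547774, minus strand: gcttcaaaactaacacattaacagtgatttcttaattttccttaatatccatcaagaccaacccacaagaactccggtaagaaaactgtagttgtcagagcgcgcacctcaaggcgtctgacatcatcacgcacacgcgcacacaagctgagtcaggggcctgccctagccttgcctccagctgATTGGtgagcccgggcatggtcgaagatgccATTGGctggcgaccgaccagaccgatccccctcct
Insig1, chr4:8057770-8058019, minus strand: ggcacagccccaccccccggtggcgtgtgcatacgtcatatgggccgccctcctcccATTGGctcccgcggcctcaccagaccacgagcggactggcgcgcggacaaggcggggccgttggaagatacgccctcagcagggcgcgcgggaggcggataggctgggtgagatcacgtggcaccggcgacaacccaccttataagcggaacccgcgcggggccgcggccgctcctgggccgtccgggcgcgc
Cyp21a1, chr20:4028141-4028390, plus strand: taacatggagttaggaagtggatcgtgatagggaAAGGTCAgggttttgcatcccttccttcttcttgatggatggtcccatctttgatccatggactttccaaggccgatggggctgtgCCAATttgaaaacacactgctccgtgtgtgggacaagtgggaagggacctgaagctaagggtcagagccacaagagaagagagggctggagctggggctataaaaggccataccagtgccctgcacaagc

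Searched on both strands, CCAAT occurred in 14 of the 18 cholesterol synthesis promoters matched by symbol (77.8%), against 34.3% of all 27457 promoters of this length. It also occurred in 2 of the 4 corticosteroid-forming enzymes with a sequence, Cyp21a1 and Cyb5a, and in 1 of 7 import genes, Npc2. The first bases of the boxes lie 188 and 133 bases before the start in Hmgcs1, 66 and 35 in Idi1 and 193 in Insig1. AAGGTCA occurred in 3.77% of all promoters and, of the 4 corticosteroid-forming enzymes with a sequence, in that of Cyp21a1. The letters TCACCCCA of the sterol regulatory element occurred in 1.15% of all promoters and in 1 of these 18, that of Srebf2. These are matches of letters in a window and not measured binding sites.

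Hmgcs1, which makes HMG-CoA, had a median of 61.7 CPM in Ami25 (range 20.6 to 95.5) and of 249.6 CPM in vehicle (range 69.4 to 422), with log2 -1.78 as the fold change (SE 0.26, adjusted p = 9.28e-08). The ranges overlapped at the low end of the vehicle group. The later enzymes Idi1 (log2 -1.60), Fdps (-1.69), Sqle (-1.18), Lss (-1.70), Cyp51 (-1.46) and Mvd (-2.26) fell too, and so did Insig1 (-0.99), which retains the SREBP complex when sterol is plentiful. Srebf2, the gene of SREBP2, was the list's single member without overlap, at 18.5 to 49.0 CPM against 94.3 to 338 CPM (log2 -2.58, SE 0.21, adjusted p = 1.27e-16). Dhcr7, the last reductase of the pathway, was the member that rose (0.56). With vehicle libraries 22, 24 and 60 left out, 19 of the 22 fell, with a median of -1.50. Those libraries were picked for their low sums over this same list, so a deeper fall was fixed in advance and is no check.

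In the medulla list 2 of 11 tested genes rose, below the share over all genes tested (27.5%), and the median was 0.14. Pnmt, which converts noradrenaline to adrenaline, lay between 431 and 827 CPM in Ami25 (median 695) and 167 and 288 CPM in vehicle (median 208), without overlap (log2 1.72, SE 0.18, adjusted p = 1.55e-11). Th, the rate-limiting enzyme of catecholamine synthesis, rose by a log2 of 0.46 (adjusted p = 0.0278), a call lost with no filter (adjusted p = 0.0947), with only the 2 groups fitted (0.0697), without libraries low in Eif2s3y (0.0571) and without vehicle libraries 22, 24 and 60 (0.0642), with its highest value of 397 CPM in Ami25 library 78. Dbh, which makes noradrenaline, was not called (log2 -0.31, SE 0.19, adjusted p = 0.166). Chga, a granule protein, had 0.72 (adjusted p = 0.0556, or 0.0284 without Ami25 library 79).

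Of 12 tested genes of neurons and their progenitors 11 fell (median log2 fold change -1.05), and the other, the tubulin gene Tubb3, had -0.65 (adjusted p = 0.0767). The neurofilament gene Nefm averaged 9.19 ± 4.19 CPM in Ami25 and 41.8 ± 18.6 CPM in vehicle (SD; log2 -2.17, adjusted p = 1.41e-08). The progenitor filament gene Nes (log2 -1.68) and the growth-cone gene Gap43 (-1.002) fell as well. Calb2, the calcium buffer calretinin, had the largest fold change of the list (log2 -3.69, SE 0.94) and 2 levels in vehicle, with libraries 3, 22, 23, 24 and 60 at 267 to 507 CPM and the other 5 at 2.44 to 7.87 CPM. All Ami25 libraries lay at or under 61.7 CPM for Calb2. Over these genes Ami25 library 79 summed to 1106 CPM, inside the vehicle range of 614 to 1775, while the median of its group was 402. That library's low cortex sum stands beside this value, and the part of tissue composition in either was not tested.

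Embryonic globins were low and adult globins high in Ami25 relative to vehicle. The embryonic share of globin counts averaged 0.180 ± 0.0696% in Ami25 (SD, n = 11) and 14.8 ± 2.51% in vehicle (SD, n = 10), a difference of -14.6 percentage points (two-sided permutation test with 100000 resamples, p = 4e-05). Every Ami25 library lay below every vehicle library. Hbe1, the embryonic epsilon globin, lay between 65.3 and 267 CPM in Ami25 (median 146) and 3684 and 7277 CPM in vehicle (median 4638). Hbg1, the third embryonic form, had a log2 fold change of -3.04. All 6 adult globin genes rose, Hbb from 2555 ± 446 to 9933 ± 2033 CPM (SD, log2 2.01) and Hba-a2 from 10853 ± 976 to 32146 ± 6158 CPM (1.62), although near-identical globin copies may share reads. All globins together took 9.60 ± 1.83% of counts in Ami25 and 3.81 ± 0.451% in vehicle (SD). Of 13 further genes of red cell maturation 9 rose and the others were not called. Alas2, which starts haem synthesis in red cells, was 3.47-fold higher without overlap (249 to 476 against 87.9 to 137 CPM). With the globins left out of the counts the numbers of calls were 1328 rises and 1337 falls.

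**Figure D4:**
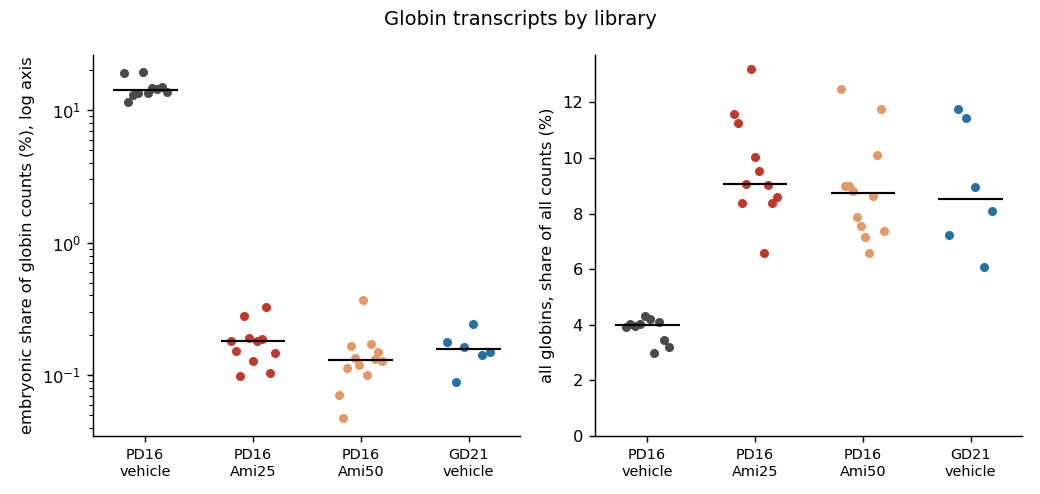
Embryonic globins as a percentage of all globin counts (left, log axis) and all globins as a percentage of all counts (right), 1 point per library and a bar at the group median. PD16 vehicle libraries lie at 11.6% to 19.4% on the left, and the 3 other groups, PD16 Ami25 among them, lie under 0.4%.

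Genes of cell division were lower in Ami25. Of 26 tested genes of DNA replication and nucleotide supply 25 fell (median log2 fold change -1.004) and 15 did so without overlap. The exception was Tyms, thymidylate synthase, which rose (0.41). Summed over the list, vehicle libraries 22, 24 and 60 were the lowest of their group at 4247, 4311 and 4166 CPM and still above every Ami25 library, and without them 25 genes fell (median -1.10). Mcm4, a subunit of the replicative helicase, ranged from 39.9 to 77.0 CPM in Ami25 and 303 to 626 CPM in vehicle (log2 -3.10, SE 0.13, adjusted p = 4.62e-29), while its partners Mcm2, Mcm3, Mcm5, Mcm6 and Mcm7 had log2 fold changes from -1.16 to -0.63. Rrm2, the small subunit of ribonucleotide reductase, ranged from 179.8 to 454 CPM against 979.6 to 5023 CPM (log2 -3.02), and the large subunit gene Rrm1 had -0.69. Slbp, which binds the end of histone mRNA, fell too (log2 -2.09). Of 25 mitosis genes 24 fell (median -0.86), with Plk1 (log2 -1.56), Ccna2 (-1.49), Ube2c (-1.30) and Cdc20 (-1.09) among the largest falls. The list's single gene not called was the topoisomerase gene Top2a (-0.58, adjusted p = 0.0635). Mki67, the common marker of cycling cells, averaged 33.1 ± 6.61 CPM against 51.8 ± 14.7 CPM (SD, adjusted p = 0.00973). Within the number series edgeR did not call Mki67 under 21 (log2 -0.64, adjusted p = 0.348) or from 21 to 40 (-0.37, 0.318).

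Of 25 extracellular matrix genes 17 rose and the other 8 were not called (median 0.54). Mfap5, a microfibril protein, ranged from 71.0 to 169.9 CPM against 5.90 to 29.3 CPM (log2 3.25, adjusted p = 4.62e-18), and elastin, Eln, was 4.11-fold higher. The collagen gene Col1a1 averaged 558 ± 184 against 509.9 ± 133 CPM (SD, adjusted p = 0.577), while Col3a1, Col5a2 and Col6a2 rose with log2 fold changes of 0.93, 0.97 and 1.00. Smooth muscle and mesenchyme genes split, with Tagln (1.72) and Myl9 (0.82) higher and Pdgfra (-1.22), Tcf21 (-0.76), Tpm1 (-0.51) and Vim (-0.49) lower among 9. The Tcf21 call was lost without vehicle libraries 22, 24 and 60 (adjusted p = 0.0866) and without Ami25 libraries 35 and 36 (0.0603). Endothelial genes fell or were not called. Pecam1, the endothelial adhesion molecule, ranged from 23.2 to 83.4 CPM against 143 to 288 CPM (log2 -2.29), and Kdr, a receptor of vascular endothelial growth factor, fell as well (-1.60). Plvap, Emcn and Cldn5 also fell, and the other 7 of 12, among them Tek, Tie1 and Flt1 at log2 0.32, 0.14 and 0.32, were not called. Of 9 junction genes Cgnl1 (1.56), F11r (1.25) and Nectin2 (0.95) rose and the cadherin gene Cdh2 (-0.95) fell, with rises near and falls below the shares over all genes tested (27.5% and 26.9%).

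Leukocyte genes rose, with 1 exception among those tested. Of 13 tested macrophage genes 12 rose (median 1.28). The complement genes C1qa, C1qb and C1qc rose with log2 fold changes of 1.86, 1.62 and 1.99, C1qc from 1.93 to 12.5 CPM in vehicle to 20.6 to 39.9 CPM in Ami25. The exception was Mrc1, the mannose receptor, which ranged from 28.4 to 55.5 CPM in Ami25 and from 71.3 to 104 CPM in vehicle (log2 -0.96, adjusted p = 2.1e-07). All 7 tested genes of neutrophil granules and alarmins rose (median 2.89). S100a9, an alarmin of neutrophils, had a median of 73.6 CPM in Ami25 (range 31.1 to 249) and of 7.03 CPM in vehicle (range 3.49 to 30.8), the list's single gene without overlap (log2 3.27, adjusted p = 8.74e-09). S100a8 (3.29), the defensin gene Np4 (2.89) and the cathelicidin gene Camp (2.80) rose too. Within the number series over 40 edgeR did not call S100a9 (log2 2.23, adjusted p = 0.0663), Np4 (1.64, 0.213) or RatNP-3b (1.86, 0.198). Il33, an alarmin of stromal cells, rose by 1.74. Cd52 of lymphocytes and B2m, the light chain of class I MHC, rose by 1.38 and 0.97.

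Among genes of peroxide handling 15 of 23 rose and 3 fell (median 0.66). Cat, the catalase gene, ranged from 114 to 227 CPM in Ami25 (median 182) and 63.9 to 141 CPM in vehicle (median 104), a 1.80-fold rise (log2 0.85, SE 0.12, adjusted p = 2.61e-08) with overlap between the groups. Within the number series under 21 edgeR did not call Cat (log2 0.52, adjusted p = 0.181). The extracellular and mitochondrial superoxide dismutase genes Sod3 (1.98) and Sod2 (1.18), the haem oxygenase gene Hmox1 (1.79), the mitochondrial thioredoxin reductase gene Txnrd2 (1.48) and the peroxiredoxin genes Prdx3 (1.09) and Prdx5 (1.13) rose. Gsr, glutathione reductase, fell from 21.6 to 75.7 CPM in vehicle to 1.21 to 17.6 CPM in Ami25 (log2 -2.42, adjusted p = 1.04e-11), and Prdx1 (-0.23) and Prdx4 (-0.42) fell less. Of 24 glutathione transferases and xenobiotic enzymes 13 rose, with the aldehyde oxidase gene Aox1 (2.74) and Akr1b8 (1.75) next after Gsta1, and Akr1c14 (-2.65) and Gstt2 (-1.005) fell. Peroxisome genes rose in 9 of 13, among them Scp2 (0.99) and the thiolase gene Acaa1a (1.03). Abcd3, a fatty acid transporter of the peroxisome membrane, fell from 1037 ± 229.9 to 143 ± 49.8 CPM (SD, log2 -2.84). Among liver genes, Alb was called higher (log2 3.11, adjusted p = 0.013) through Ami25 library 33, at 1954 CPM, and stood at log2 -0.16 (adjusted p = 0.738) once the libraries rich in Alb were left out. Of the iron genes the ferritin heavy chain gene Fth1 rose 2.58-fold and Cp, ceruloplasmin, 4.70-fold, and Ncoa4, which delivers ferritin for breakdown, fell (-1.40).

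Thyroid hormone signalling could be read in few genes. Only 5 of 26 listed genes passed the filter. Me1, malic enzyme, rose 3.01-fold (24.0 to 299 against 19.4 to 69.4 CPM, adjusted p = 2.67e-05), with log2 values of 1.61 (adjusted p = 0.0986), 1.86 (called) and 0.55 (0.54) in the 3 series. Ucp2, a mitochondrial carrier, rose 1.99-fold. Cpt1a, which imports fatty acids into mitochondria, ranged from 59.4 to 193 CPM against 201 to 707 CPM without overlap (log2 -1.55, adjusted p = 1.11e-08). The corepressor gene Ncor1 had 0.50 (adjusted p = 0.0381), a call lost in 8 of 13 alternatives over all series, DESeq2 among them (adjusted p = 0.0574). Thra and Thrb, which encode the hormone's receptors, averaged 7.06 ± 4.03 and 1.27 ± 1.47 CPM in Ami25 (SD) against 10.6 ± 6.54 and 2.36 ± 1.66 CPM in vehicle, too low to test. The hormone-responsive gene Klf9, also below the filter, averaged 10.5 ± 4.07 CPM against 3.71 ± 2.43 CPM (SD), on 59 and 22 counts. The deiodinase gene Dio1 had no count in Ami25, an upper limit of 0.512 CPM in the summed libraries by counting error alone, and 3 counts in vehicle.

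Respiratory chain genes rose more often than they fell. Of 78 nuclear genes of the respiratory chain 43 rose (median 0.24), with Sdha of complex II at 1.41, Ndufa7 at 0.86 and Atp5if1 at 0.80. The 5 that fell were Ndufa10 (-2.21), Cycs (-0.79), Ndufa4l2 (-0.68), Cox7b (-0.50) and Ndufab1 (-0.27). In the list of fatty acid synthesis and oxidation 7 of 14 rose and 4 fell, the falls near the share over all genes tested (26.9%). The oxidation enzymes Acadvl (1.62), Acadm (1.34), Cpt2 (1.32), Acadl (1.07), Hadha (0.98) and Hadhb (0.71) rose, and the fatty acid synthesis genes Acly (-0.95) and Elovl6 (-1.29) fell with the binding proteins Fabp3 and Fabp5. Cpt1a, given with the thyroid hormone genes, also acts in oxidation and fell. Of 16 glycolysis and hypoxia genes 9 rose, Bnip3 most (1.30), and the aldolase gene Aldoa by 0.83. Ribosomal protein genes fell in 57 of 75 (median -0.45), and 20 did so without overlap. Rpl27 (-1.22) and Rps25 (-1.04) fell most, and the median of this list was -0.45 with DESeq2's size factors and -0.46 without the globins.

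**Figure D5:**
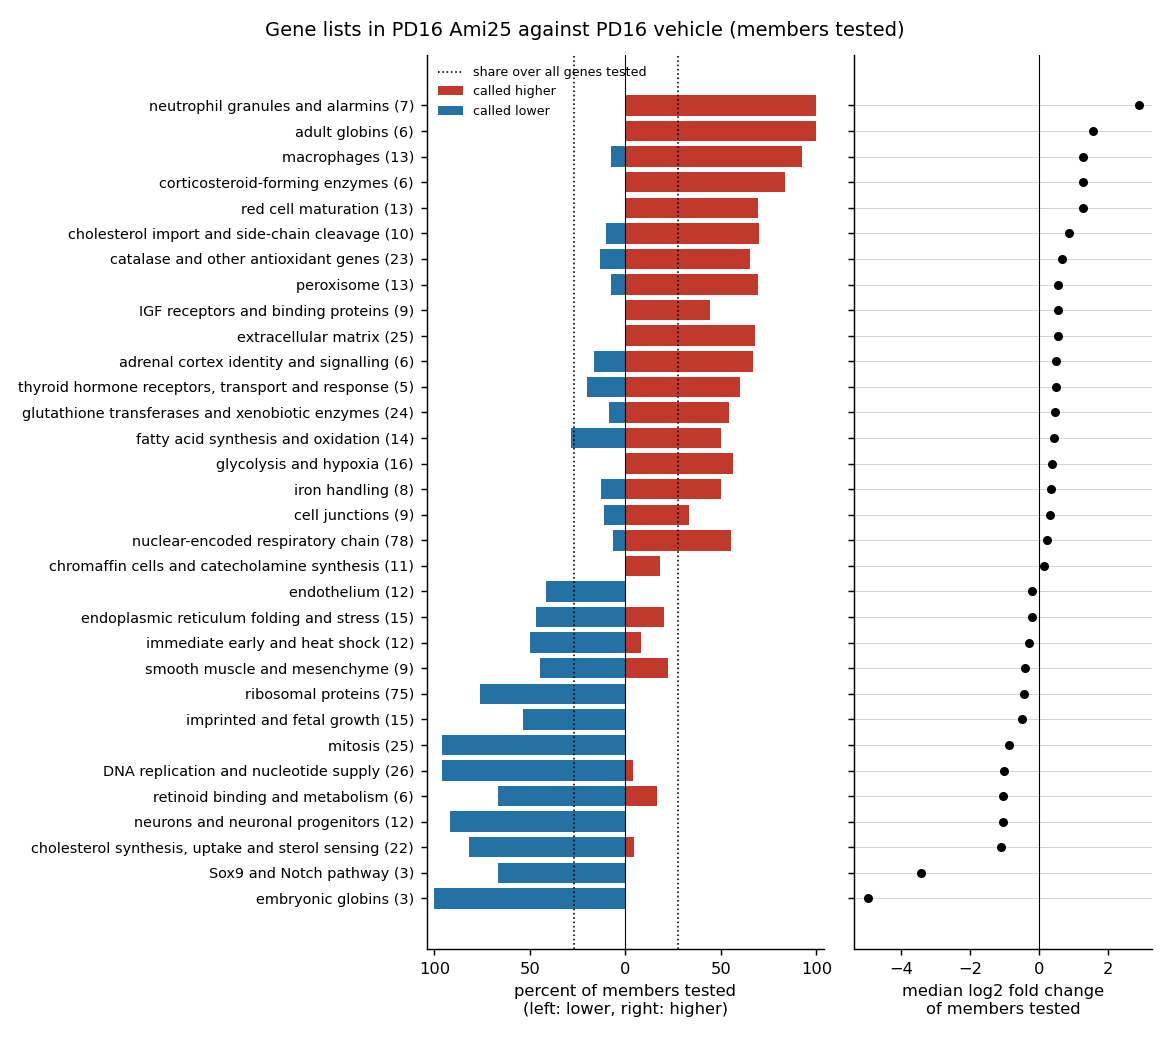
Percent of tested members called higher (right) and lower (left) for the gene lists with 3 or more tested members, with the number tested in parentheses, and the median log2 fold change of each list. Dotted lines mark 27.5% and 26.9%, the shares over all genes tested.

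Genes of fetal growth and development fell or were not called, while some of the insulin-like growth factor (IGF) system rose. Of 15 imprinted and fetal growth genes 8 fell. Plagl1, a growth-restraining zinc finger gene, ranged from 58.0 to 144 CPM against 406 to 858 CPM (log2 -2.78), and Gpc3, a surface proteoglycan (-2.62), and the growth factor gene Igf2 (-0.88) fell with it. Within the number series edgeR did not call Igf2 under 21 (log2 -1.17, adjusted p = 0.138) or from 21 to 40 (-0.44, 0.128). H19 averaged 155 ± 64.7 against 157 ± 28.7 CPM (SD, adjusted p = 0.975). Igf1 rose from 115 to 214 CPM in vehicle to 284 to 1123 CPM in Ami25 (log2 1.91, adjusted p = 2.22e-07), and the binding protein genes Igfbp6 (2.60), Igfbp2 (0.89) and Igfbp7 (0.86) rose. Sox9 and the Notch ligand gene Jag1 (-3.42) fell, while the receptor gene Notch2 had -0.02 (adjusted p = 0.955). Of 6 retinoid genes 4 fell and 1, the retinal reductase gene Dhrs3 (0.44), rose. The retinoic acid binding genes Crabp1 (-3.58) and Crabp2 (-1.62) and the retinol carrier gene Rbp4 (-1.23) were among the falls. Falls were also seen in 6 of 12 genes of the immediate early and heat shock response, led by Jund (-3.27), the cold-inducible gene Cirbp (-2.95) and the chaperone gene Hsph1 (-2.50), and Hspb1 rose (0.82). In the endoplasmic reticulum list 7 of 15 fell, Dnajb9 most (-1.85), and Ddit3 (1.60), Asns (1.38) and Herpud1 (1.05) rose. Ddit3, a stress-induced transcription factor, stood at 326 CPM in Ami25 library 36 and had a group median of 24.5 CPM, against 19.7 in vehicle. Without Ami25 libraries 35 and 36 its log2 value was 0.87 (adjusted p = 0.0836).

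The next comparison was between the doses of amitrole. Ami50 and Ami25 differed in no gene that passed the threshold in edgeR (0% of 4906 called in either direction, 206 at an unadjusted p under 0.05, smallest adjusted p 0.925), and DESeq2 called 1. Cyp11a1 averaged 19293 ± 4205 CPM in Ami25 and 20156 ± 5475 CPM in Ami50 (SD, n = 11 and 12), a log2 difference of 0.08 (SE 0.15). Gsta1 differed by 0.04 (SE 0.14), Cat by 0.06 (SE 0.11), Hmgcs1 by 0.22 (SE 0.27) and Ythdf2 by -0.03 (SE 0.18). For Hbe1 the difference was -0.59 (SE 0.22) and for S100a8 0.85 (SE 0.36). The median log2 difference over all tested genes was 0.01, and the medians of the lists of steroid import, cholesterol synthesis, DNA replication and macrophages were 0.08, 0.06, 0.04 and 0.02. Eif2s3y, a Y-linked gene, lay between 62.9 and 112 CPM in all Ami25 libraries and under 10 CPM in 8 of the 12 Ami50 libraries. Eif2s3y was itself not called between the doses (log2 difference -1.18), so 0 calls do not show that the groups were alike. With only the other 4 Ami50 libraries, all numbered under 21, the edgeR count was 0 in each direction, from fewer libraries.

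Last, Ami25 was set beside GD21 vehicle, which has a like embryonic globin share. This comparison uses the same Ami25 libraries as the first, so each comparison's values are given side by side. Of 6287 genes tested over both stages 736 (11.7%) were higher and 807 (12.8%) lower in PD16 Ami25 than in GD21 vehicle, 72 and 362 of them by 2-fold or more. With libraries that hold liver transcripts left out (200 CPM of Alb or more), the rises numbered 428 and the falls 726, and without Ami25 libraries 35 and 36 they numbered 479 and 708. Several genes that differed between the PD16 groups were not called here. For Cyp21a1 the GD21 vehicle mean was 9512 ± 1122 CPM (SD, n = 6) beside 8917 ± 3738 CPM in Ami25, with a log2 difference of -0.18 (SE 0.21, adjusted p = 0.556) against the 1.64 to PD16 vehicle. Likewise Pnmt differed from GD21 vehicle by -0.07 (SE 0.18), Gsta1 by 0.12 (SE 0.17), Hbe1 by 0.21 (SE 0.39), Hmgcs1 by -0.44 (SE 0.29), Igf1 by -0.43 (SE 0.37) and C1qa by 0.00 (SE 0.28), none of them called. GD21 vehicle was chosen for its globin share, so the small Hbe1 difference follows from that choice. The other genes were picked from many, and a missing call does not show that the groups were alike.

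A second set of genes lay below both vehicle groups. Ythdf2 averaged 71.4 ± 13.3 CPM in Ami25 (SD), whereas the vehicle means were 484 ± 136 at GD21 and 1193 ± 281 at PD16, with a log2 difference of -2.88 from GD21 (adjusted p = 1.27e-18). Dhx36 (-2.80 against GD21 and -3.91 against PD16 vehicle), Naa50 (-2.47 and -3.78), Fscn1 (-2.40 and -4.34), Marcks (-2.01 and -3.88), Sox9 (-1.90 and -3.94), Jund (-2.53 and -3.27), Abcd3 (-2.29 and -2.84), Vdac1 (-1.88 and -2.08), Srebf2 (-1.87 and -2.58), Mcm4 (-1.62 and -3.10) and Kdr (-1.62 and -1.60) were called lower against both. For comparison, in the PD16 libraries with methimazole at 16 mg/kg per day, Ythdf2 averaged 126 ± 48.2 CPM, Vdac1 531 ± 73.0 CPM and Kdr 85.8 ± 29.3 CPM (SD, n = 10), with Vdac1 at 505 ± 45.6 and Kdr at 91.7 ± 14.4 CPM in Ami25. Gsta1 and Hbe1 averaged 168 ± 62.0 and 5550.3 ± 1367 CPM with methimazole, beside 145 ± 35.0 and 4896 ± 1162 CPM in PD16 vehicle. These genes were picked from many and their methimazole means were not tested. Other genes and the lower methimazole dose are not given, so the means do not show how genes divide between the treatments. The largest falls of Ami25 against GD21 vehicle were in Prg2, an eosinophil granule protein, at -3.51 (log2), the potassium channel gene Kcnd2 (-3.18), the plasminogen gene Plg (-3.04), a liver gene, and the Mediator subunit gene Med26 (-3.03). Plg was not called in DESeq2 (adjusted p = 0.144), and GD21 vehicle libraries 42, 44 and 62 held 431, 5319 and 1929 CPM of Alb. GD21 vehicle library 42 lay far from its group for Kcnd2 (244 CPM) and Med26 (119 CPM). The largest rises were in Ddit3 (1.67), the glutathione synthesis gene Gclc (1.40), the retinol saturase gene Retsat (1.37) and the synapse matrix gene Agrn (1.35), of which Ddit3 was not called without Ami25 libraries 35 and 36 (log2 0.93, adjusted p = 0.103). For Retsat, GD21 vehicle library 62 lay far from its group (442 CPM). Ribosomal protein genes were lower than in GD21 vehicle in 64 of 75 (median -0.49), while cholesterol synthesis genes were called lower in 2 of 22, Mvd and Srebf2.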

How the data were processed

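The deposited table holds whole-number counts per gene symbol for 83 BRB-seq libraries, and the counts are not normalized, per the file headers and values. Per the submitters' processing notes the authors used BWA 0.7.4.4 and the rn6 build. How reads were counted (tool, annotation, strand, molecular identifiers) is not given in the sources used here, so antisense partners, overlapping genes and near-identical copies cannot be told apart. Tables and plots were made with R 4.3.3 and Python 3.11.15 (pandas 2.3.3, scipy 1.17.1, matplotlib 3.10.9). Groups came from the sample titles.

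Genes passing filterByExpr (minimum count 10) were tested with edgeR 4.0.16 (TMM normalization, robust quasi-likelihood test, Benjamini-Hochberg adjusted p under 0.05). All 53 PD16 libraries were fitted together, and all 83 for the comparison with GD21. CPM are counts per 1000000 of a library's total. The self-test simulated 4568 genes. Alternatives were DESeq2 1.42.0, its size factors in edgeR, other filters, globins left out, the 2 groups alone, the library number series as a covariate or separately, and libraries left out by total, Alb or Eif2s3y. Leaving out vehicle libraries 22, 24 and 60, Ami25 library 79, or Ami25 libraries 35 and 36 was chosen after seeing the data. No 2 libraries of a group were duplicates (chi-square per degree of freedom 1.66 or more in 100 pairs).

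Median totals of 551457 counts (Ami25) and 627048.5 (vehicle) limit what low genes can show, and intervals and floors of 3 counts cover counting error only.

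The gene lists and members were chosen with earlier results of these data known. Named genes were the 10 largest called rises and 10 largest called falls of at least 20 mean CPM in the higher group, up to 4 called members of each list by absolute log2 fold change, a fixed panel of 30 genes, and 4 rises and 4 falls of the other comparisons. Other members were named after their values were seen. Promoters (250 bases before the start) were matched by symbol. Some genes are not reported here.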

Additional observations from a re-analysis of the deposited data

Results flagged for a closer look

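In 9 of 98 values examined, 1 library of the 10 in PD16 vehicle or of the 6 in GD21 vehicle lay far from its group, its gap to the nearest other library being large relative to the group's whole range (Dixon's critical values 0.466 and 0.625). Chance gives about 1 in 20 under a normal distribution. In PD16 vehicle these were Cyp11b2 at 1473 CPM in library 3, Hr, a corepressor gene of thyroid hormone response, at 1.35 CPM in library 3 (the group's single count), the matrix gene Dpt at 13.0 CPM in library 60, and 3 values of library 4. The latter were the thyroid hormone receptor gene Thra at 26.2 CPM, the imprinted RNA H19 at 232 CPM and the sum of the circadian clock genes at 105 CPM. In GD21 vehicle they were Retsat at 442 CPM in library 62, and Kcnd2 at 244 CPM and Med26 at 119 CPM in library 42. A gene with 1 count in its group is always flagged, so the Hr flag was fixed in advance. Genes of low CPM need not follow a normal distribution, and the rate of 1 in 20 may not hold for them.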

How the results depend on the processing

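Against PD16 vehicle, the counts of 1350 rises and 1318 falls stayed within 1.5 times in the 13 alternatives over all number series. Within series under 21 they were 486 and 500 and within series over 40 they were 746 and 863, where fewer libraries entered, and at 2-fold or more 417 and 448. The embryonic globin share differed by -15.07 points (exact permutation p = 0.133, 4 against 2), -14.67 (0.0286, 4 against 4) and -14.24 (0.0571, 3 against 4) in the series under 21, 21 to 40 and over 40. Each of these p-values is the smallest that its numbers of libraries allow. Ami50 against Ami25 gave 1 higher gene in DESeq2, with no filter, with a mean of at least 10 CPM and without vehicle libraries 22, 24 and 60, and otherwise 0. Against GD21 vehicle the 736 rises became 359 with no filter (31.9% of calls higher, against 47.7%), 428 when libraries holding 200 CPM of Alb or more were dropped (37.1%) and 479 without Ami25 libraries 35 and 36 (40.4%), and 72 at 2-fold or more, where the falls numbered 362. Without libraries with Eif2s3y under 10 CPM 36.7% of calls were higher. The causes of these changes were not tested.

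Most named genes were chosen because they were called, so the number called among them was largely set by that choice. Over all genes tested 54.4% were called. Of 152 named genes tested 147 were called, 139 in all 13 alternatives over all series and 82 within each series. The 8 lost in at least 1 were Cyp11b1, Th, Nr4a1, Ncor1, Tcf21, Alb, Ddit3 and Dbp, the last, a clock gene, without Ami25 libraries 35 and 36 (log2 0.58, adjusted p = 0.0529). Signs turned for Cyp11b1 over 40 (log2 -0.32), Mrap over 40 (-0.0591), Dbh over 40 (0.23), Col1a1 under 21 (-0.15), and Cyp11b2 under 21 (-1.78) and without Ami25 libraries 35 and 36 (-0.37). Alb turned in DESeq2 (-0.20), with those high-Alb libraries dropped (-0.16) and under 21 (-0.89). H19, at 0.01, turned to -0.0214 with no filter, -0.0111 with a mean of 10 CPM, -0.14 without the high-Alb libraries, -0.0230 without low Eif2s3y, -0.0821 without vehicle libraries 22, 24 and 60, -0.0102 without Ami25 libraries 35 and 36, -0.0201 without Ami25 library 79 and -0.56 under 21. No paired analysis was possible because the labels name neither litter nor animal. Stage and treatment, and cell number and RNA per cell, cannot be told apart.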
